A study of Mus musculus with 5 samples.

Results

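The nuclear genes for subunits of the mitochondrial respiratory chain were compared by complex in chemically induced mouse colon tumors. Members were chosen by name alone: every gene symbol of the table that begins with the usual root for a subunit of complex I (Nduf followed by a, b, c, s or v and a digit, and Ndufab1), complex II (Sdha to Sdhd), complex III (Uqcr), complex IV (Cox4 to Cox8) or complex V (Atp5). The rule found 89 genes of the 52143 in the table. Of these, 82 are subunit genes: 36 of complex I, 4 of complex II, 8 of complex III, 18 of complex IV and 16 of complex V. The other 7 carry a matching name but were kept apart. Ndufa4l2, Cox7a2l and Atp5s are not established structural subunits of the complex their names point to, and Ndufa11b, Ndufb4c, Ndufs6b and Cox6c2 are annotated processed pseudogenes. Ndufa4 was counted in complex IV, where its protein sits.

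RNA-Seq was run on colon tumors of 5 mice, 2 in the Control group (replicates 1 and 4) and 3 in the SIGLEC12 group (replicates 2, 3 and 4). All mice carried Villin1-Cre-ERT, a tamoxifen-activated Cre recombinase driven by the promoter of Villin1, which is active in the epithelium of the small and large intestine. The SIGLEC12 mice had in addition a conditional knock-in of human SIGLEC12 in the Rosa26 locus, in which a CAG promoter drives Siglec-XII once Cre has removed a stop cassette, and mice have no SIGLEC12 gene of their own. All were females of 8 weeks at the start. They received tamoxifen (5 days, 10 mg/ml), a single injection of the carcinogen azoxymethane (AOM, 10 mg/kg) and then cycles of dextran sulfate sodium (DSS, 2.0% for 5 days, with 14 days of recovery), and tumors were taken after the 4th cycle, on day 87. The question of the study was what Siglec-XII in the epithelium does to such tumors. GEO's design text gives 3 mice to each arm, of which 1 of the Control arm was not analysed here. With 2 against 3 mice, an exact permutation test cannot give a p below 0.1.

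Oxidative phosphorylation passes electrons from food through 4 complexes of the inner mitochondrial membrane to oxygen, and the proton gradient this builds drives complex V, the ATP synthase. Complex I takes electrons from NADH, complex II from succinate as a step of the tricarboxylic acid cycle, complex III passes them from ubiquinol to cytochrome c, and complex IV hands them to oxygen. Complexes I, III, IV and V are built from proteins encoded in mitochondrial DNA together with the nuclear proteins followed here, and complex II from nuclear proteins only. Colonocytes depend strongly on mitochondrial oxidation, above all of butyrate from the gut bacteria.

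All values are the authors' log2(TPM + 1), or the TPM computed back from them, and errors are SD between mice. TPM is a level per transcript length relative to all RNA of the sample, and a difference on the log2(TPM + 1) scale understates that of low genes. The sequencing depth behind the values is unknown. Genes annotated as protein-coding took 5.70% and 6.73% of the TPM in Control and 8.75% to 9.72% in SIGLEC12, so nearly every messenger sat higher in SIGLEC12: 87.2% of the 10338 genes tested had a higher mean there, and the median difference was 0.38. After each sample was rescaled to an equal protein-coding total, that median was 0.01. Both scales are given below, and the rescaled values show the members relative to the common shift. Columnar epithelial markers were present in all samples, with a summed level of 349 and 1028 TPM in Control and 1123 to 1735 TPM in SIGLEC12. Control replicate 1 was lowest in this sum and, as shown next, in most of the subunit genes. Of 11 epithelial markers tested, 9 were higher in SIGLEC12 (87.2% of all genes), among them Krt20 by 0.64 and Vil1 by 0.78, both with overlapping groups. The anion exchanger Slc26a3 and the carbonic anhydrase Car1 of mature colonocytes differed by -1.505 and -0.53. Slc26a3 was at 3.32 and 4.62 in Control and 2.54, 2.04 and 2.82 in SIGLEC12 (log2). Car1 overlapped, at 4.98 and 6.70 in Control and 5.89, 5.48 and 4.56 in SIGLEC12 (log2). All 5 fibroblast markers tested were higher in SIGLEC12 as deposited (87.2% of all genes) and after rescaling (51.1%), with medians of 0.85 and 0.69. Dcn had the largest difference, 1.75. As deposited 3 of them were higher with no overlap (54.1% of all genes), while Col1a1 and Col1a2 overlapped. Col1a1 was at 1.62 and 1.48 in Control and 3.26, 1.28 and 2.08 in SIGLEC12 (log2). The list summed to 8.72 and 10.5 TPM in Control and 17.98 to 57.9 TPM in SIGLEC12. The part of epithelial and fibroblast content in the results was not tested, and in bulk tissue fewer cells of a type and less RNA per cell cannot be told apart.

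Of the 82 subunit genes, 77 reached the filter for testing, a TPM of at least 1 in at least 2 samples. The filter was met by the Control samples alone for 76 of them. Cox8b passed only through SIGLEC12 samples, so the filter favored a positive difference for it. The mean level of the tested genes ranged from 0.787 TPM for Cox8b to 130.9 TPM for Atp5b, the catalytic beta subunit of the ATP synthase (ENSMUSG00000025393, GRCm38 chr10:128083273-128090391). Atp5b was followed by Cox8a and Cox6b1, small subunits of complex IV. Per transcript length, the median subunit gene stood at 11.4 TPM in complex I, 12.1 TPM in complex II, 26.2 TPM in complex III, 38.1 TPM in complex IV and 28.7 TPM in complex V. The partner of Atp5b in the catalytic ring, the alpha subunit Atp5a1, was listed at 21.5% and 21.5% of the Atp5b level in Control and at 19.5%, 19.1% and 20.4% in SIGLEC12, although the proteins are assembled in equal numbers (exact permutation p = 0.2).

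**Figure D1:**
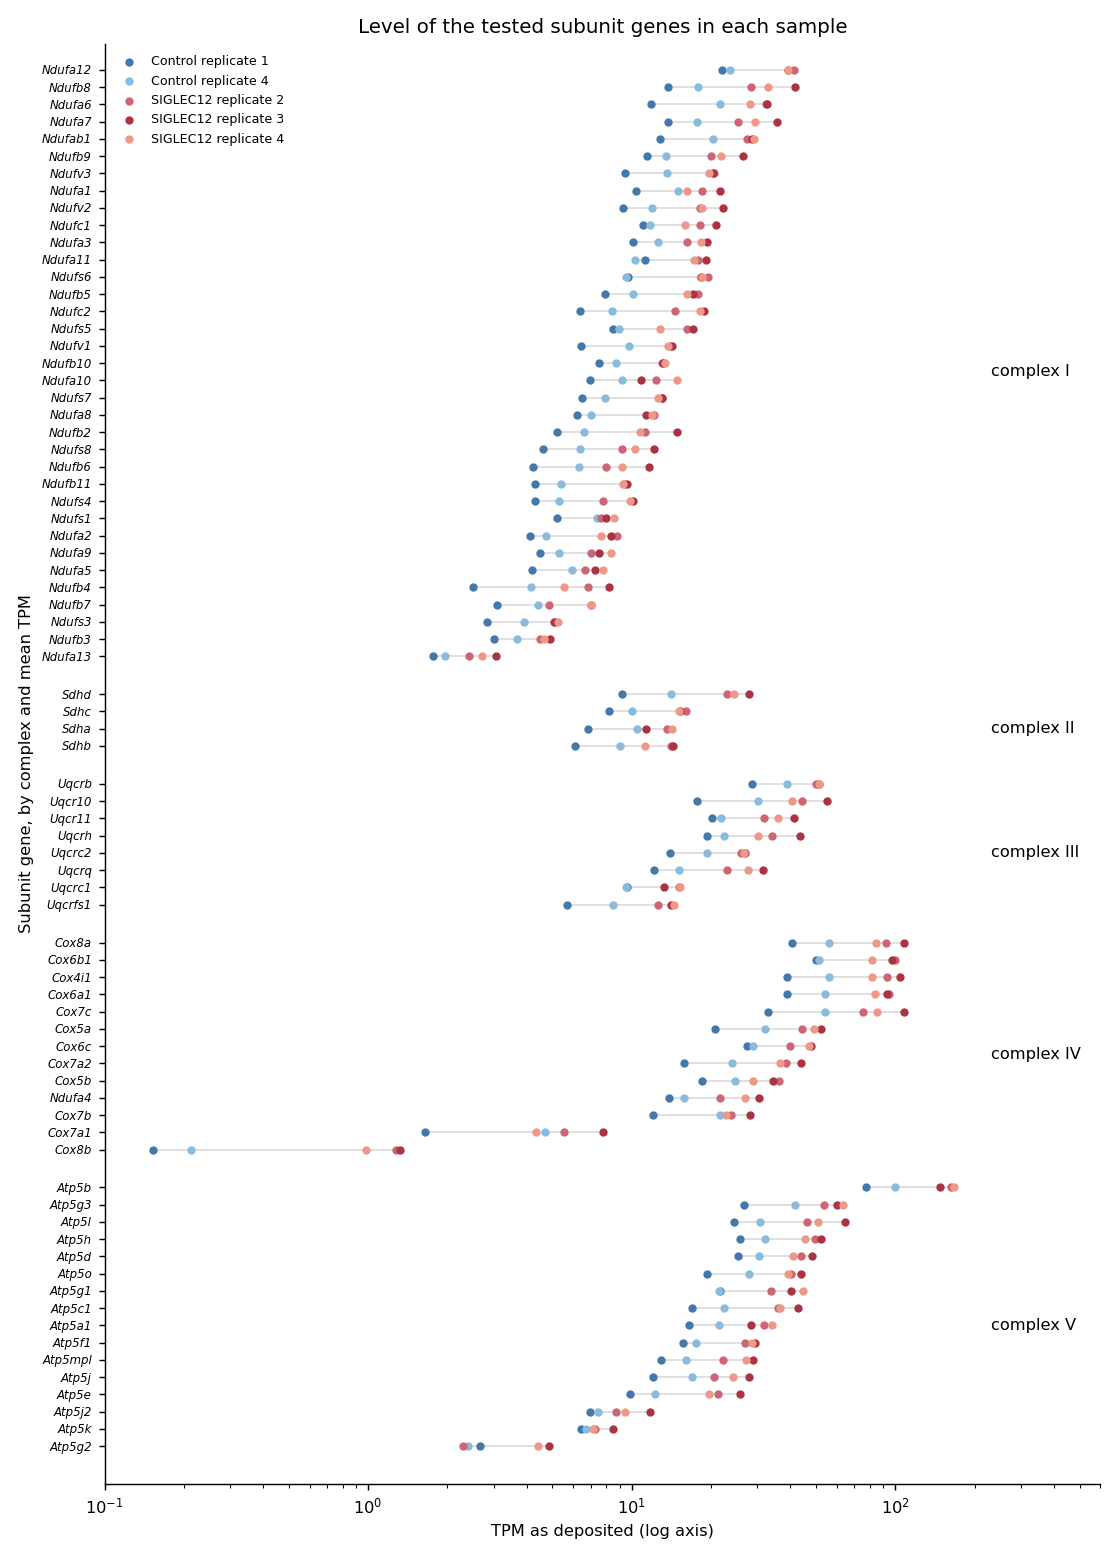
Level of the tested subunit genes, all but 1 of the 77, in each of the 5 samples, as deposited TPM on a log axis, ordered by complex and by mean TPM. The 3 SIGLEC12 points lie to the right of both Control points in every gene shown except Cox7a1 and Atp5g2.

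All of the complexes were higher in SIGLEC12 as deposited, by nearly the same amount. The mean over the 36 genes of complex I was 2.96 and 3.26 in the Control samples and 3.78, 3.93 and 3.82 in the SIGLEC12 samples. The 4 genes of complex II averaged 3.09 and 3.56 in Control and 4.12, 4.11 and 4.06 in SIGLEC12. For the 8 genes of complex III the means were 3.95 and 4.29 against 4.80, 5.00 and 4.86. In each case the groups did not overlap, and Control replicate 1 was the lowest sample. Complex IV, with 13 tested genes, averaged 4.12 and 4.58 in Control and 5.15, 5.35 and 5.08 in SIGLEC12. Complex V, with 16, averaged 4.07 and 4.34 in Control and 4.80, 5.04 and 4.92 in SIGLEC12. The differences, SIGLEC12 minus Control, were 0.73 for complex I, 0.77 for complex II, 0.76 for complex III, 0.84 for complex IV and 0.72 for complex V. No p is given for these means, since the members were chosen with results of these data known.

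After rescaling, the differences were 0.24, 0.27, 0.24, 0.34 and 0.20 for complexes I to V. The groups did not overlap for any complex on this scale, but the gap was narrow: in complex II the highest Control sample was at 3.78 and the lowest SIGLEC12 sample at 3.79, and in complex IV they were at 4.80 and 4.82. With Cox8b left out of complex IV, Control replicate 4 at 5.17 was above SIGLEC12 replicate 4 at 5.15, and with the trend with transcript length also removed the groups overlapped for complexes II and IV. SIGLEC12 replicate 4 was the lowest of its group in all of the complexes on this scale, and SIGLEC12 replicate 3 the highest. Among the 77 genes, replicate 3 held the highest rescaled value in 57 and Control replicate 1 the lowest in 51. Leaving out SIGLEC12 replicate 3 gave rescaled differences of 0.16 for complex III and 0.11 for complex V, and leaving out Control replicate 1 gave 0.14 for complex II and 0.22 for complex IV. Counted as a share, the 82 subunit genes took 18.7 and 20.7 of every 1000 protein-coding TPM in Control and 23.9, 27.03 and 21.9 in SIGLEC12, a ratio of group means of 1.23.

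**Figure D2:**
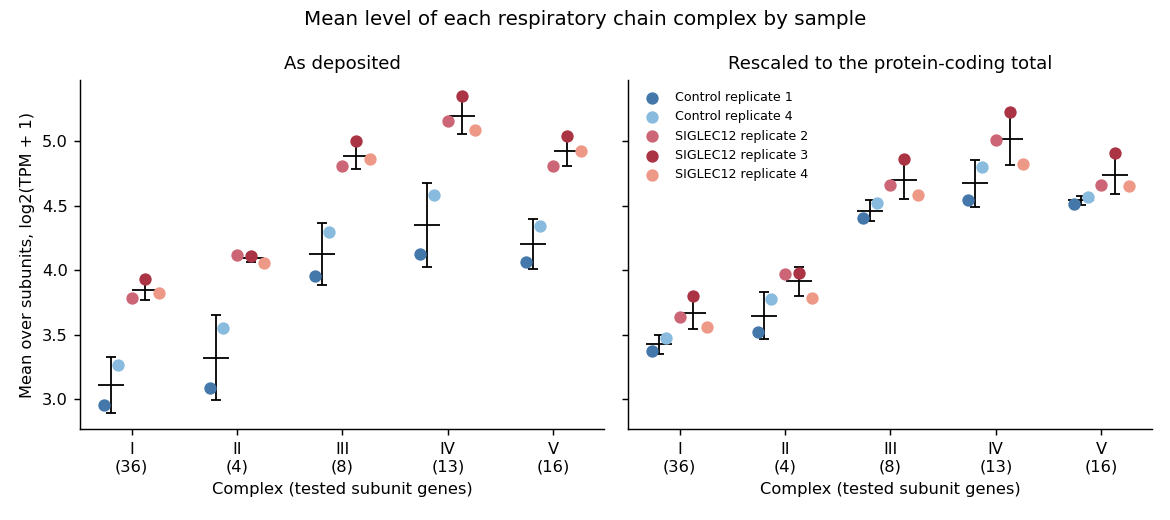
Mean log2(TPM + 1) over the tested subunit genes of each complex in each sample, as deposited on the left and rescaled to an equal protein-coding total on the right, with the group mean and SD as black bars and the number of genes in parentheses. The step from Control to SIGLEC12 is of like size in the 5 complexes and shrinks on the right, from between 0.72 and 0.84 to between 0.20 and 0.34.

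Complex II served as the internal reference, being the complex with no subunit from mitochondrial DNA. A gap between complexes within a sample is little affected by that sample's scale. The mean of complex I lay below that of complex II by -0.13 and -0.29 in Control and by -0.33, -0.18 and -0.24 in SIGLEC12. The gap of complex III to complex II was 0.87 and 0.74 in Control and 0.69, 0.89 and 0.80 in SIGLEC12. Complex IV stood above complex II by 1.04 and 1.03 in Control and by 1.04, 1.24 and 1.03 in SIGLEC12. For complex V the gap was 0.98 and 0.78 against 0.69, 0.93 and 0.87. The groups overlapped in all of the 4 gaps as deposited, and the group means of the gaps differed by between -0.05 and 0.07, which is within the SD of 0.10 to 0.14 found in at least 1 group of each. After rescaling the groups still overlapped in the gaps of complexes I, III and V. For complex IV the highest Control sample was at 1.025 and the lowest SIGLEC12 sample at 1.031, with group means 0.08 apart. This separation rests on Cox8b, which met the filter through the SIGLEC12 samples alone. With Cox8b left out, the rescaled means of complexes IV and II were 4.90 and 3.52 in Control replicate 1. In SIGLEC12 replicate 4 they were 5.15 and 3.79, so the gaps of the groups overlapped. With Cox8b kept, the gap of complex IV to II differed by 0.15 when medians replaced means and by 0.15 with a pseudocount of 0.1. As deposited without SIGLEC12 replicate 3 it differed by 0.0024.

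Gene by gene, none of the 77 passed limma with Benjamini-Hochberg adjustment over all genes tested (0 of 77 at an adjusted p under 0.05, beside 0% of all genes). The adjusted p ranged from 0.0974, the smallest in the whole table, to 0.463. All 77 had a higher mean in SIGLEC12 (87.2% of all genes), in 75 the groups did not overlap (54.1% of all genes), and 66 had an unadjusted p under 0.05 (33.4% of all genes). Without Cox8b these counts were 76, 74 and 65 of 76. Without Control replicate 1 the last count was 35 (13.9% of all genes). Without Control replicate 4, 28 subunit genes passed the adjusted threshold, as did 15.5% of all genes, in a fit where the single remaining Control sample is assumed to vary like the other group. Ndufc2, Ndufb8, Sdhd and Cox7c had an unadjusted p of at most 0.05 and a difference of at least 2-fold (3.97% of all genes). The median difference was 0.77 over the 77 genes and 0.38 over all genes.

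After rescaling, 71 of the 77 subunit genes remained higher in SIGLEC12 (51.1% of all genes). The groups did not overlap, with SIGLEC12 higher, in 40 (15.6% of all genes), and 5 had an unadjusted p under 0.05 (4.45% of all genes). Without Cox8b, whose direction the filter favored, there were 4 of 76, among them Ndufc2, Sdhd and Ndufb11, the last named after its value was seen. The smallest limma adjusted p among subunits was 0.457. Lower with no overlap was 1 gene, Atp5k (16.8% of all genes). The median of the subunit genes was 0.26 and their interquartile range ran from 0.12 to 0.38, a width of 0.26 against 0.42 for all genes tested. When the trend with transcript length was also removed, 58 remained higher (50.6% of all genes), 29 were higher with no overlap (15.1% of all genes), 2 had an unadjusted p under 0.05 (4.27% of all genes), or 1 without Cox8b, and the median was 0.13.

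**Figure D3:**
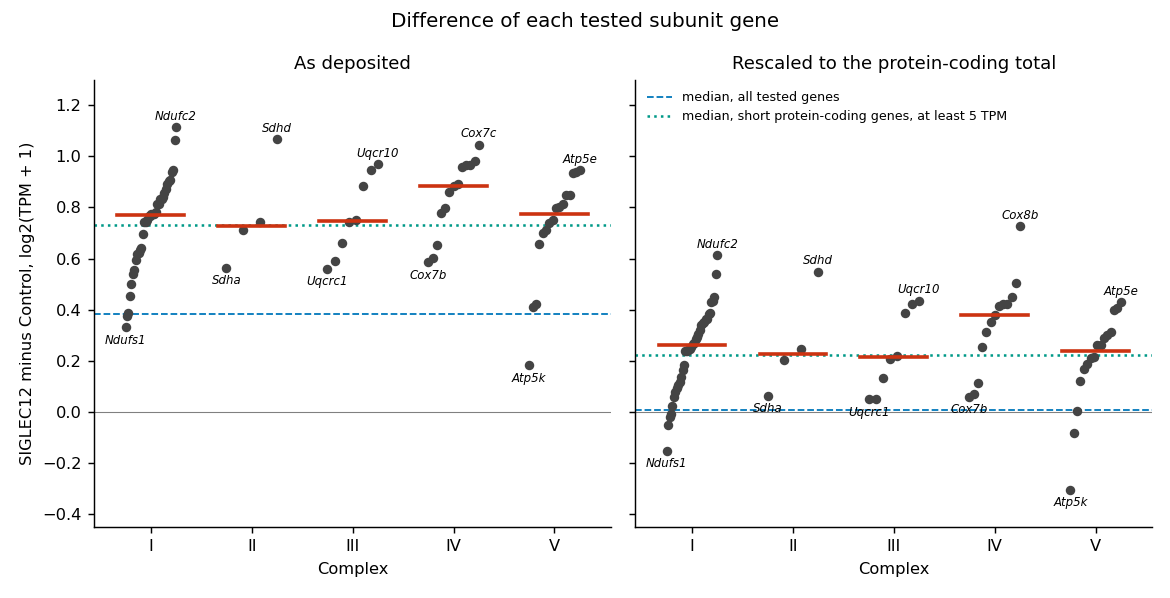
SIGLEC12 minus Control difference of each tested subunit gene on the log2(TPM + 1) scale, by complex, as deposited on the left and rescaled on the right, with the largest and smallest of each complex named. Red bars are the median of the complex, the dashed line the median of all 10338 tested genes (0.38 and 0.01) and the dotted line that of the 852 protein-coding genes under 1000 bases and at 5 TPM or more (0.73 and 0.22), close to which the medians of the complexes lie.

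Annotated length and level moved with these values. Length is the median over the annotated protein-coding transcripts of a gene, whatever their use in these samples. It can therefore differ from that of the messenger present. Ndufs1, the largest subunit of the electron input module, is listed at 651 bases and Atp5g1 at 2676. The median transcript length of the tested subunit genes was 651 bases, and among all tested protein-coding genes the difference was larger for short ones: the median was 0.55 for the 1997 genes under 1000 bases and 0.25 for the 1490 longest, of 4000 bases or more. Protein-coding genes that were both under 1000 bases and at 5 TPM or more, 852 in all, had a median of 0.73 as deposited and 0.22 after rescaling, against 0.77 and 0.26 for the subunit genes. The medians of the subunit genes, of which 59 of 77 are under 1000 bases by this annotated length, lay higher by little on either scale. Within the 77, length had no relation to the difference (Spearman's rho across genes -0.11, n = 77), while level had a moderate one as deposited (rho 0.42) that was lower after rescaling (rho 0.26). Genes are not independent replicates, and all points share the same 5 libraries.

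**Figure D4:**
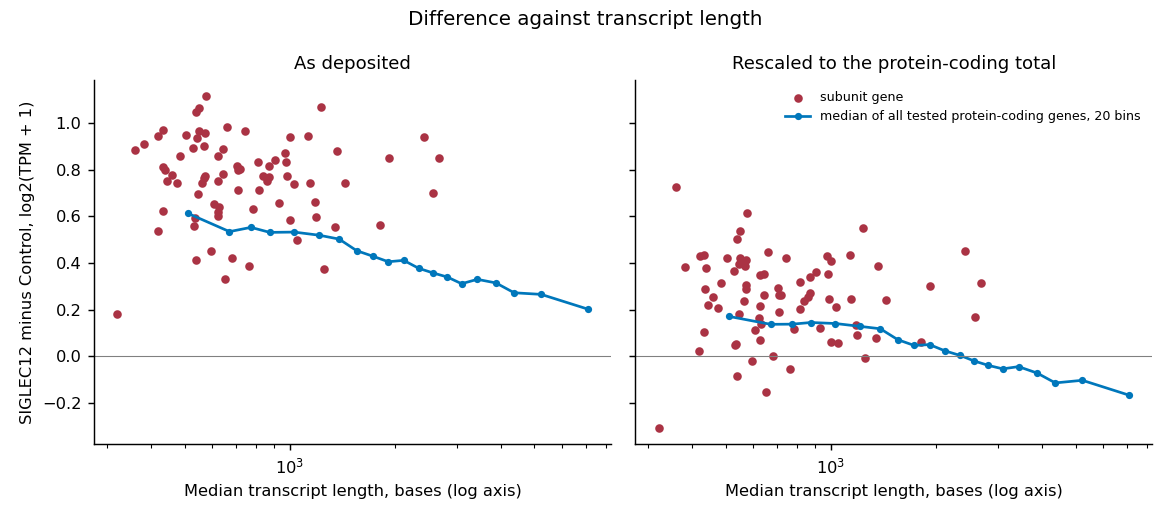
SIGLEC12 minus Control difference of the 77 subunit genes against the median length of their protein-coding transcripts (log axis), as deposited on the left and rescaled on the right. The line joins the medians of 20 equal bins of all tested protein-coding genes and falls with length, and most subunit genes lie above it.

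In complex I the differences of the core subunits, which include the carriers of the flavin and the iron-sulfur clusters, varied in size. No test compared them. Ndufs1, the largest subunit of the electron input module, was at 5.19 and 7.40 TPM in Control and at 7.66, 7.98 and 8.58 TPM in SIGLEC12. It had the smallest difference of the complex, 0.33 (SE 0.21, limma adjusted p = 0.270), and was lower in SIGLEC12 after rescaling, by -0.15, with overlapping groups. Its partners in electron input, the flavin-binding Ndufv1 and the iron-sulfur protein Ndufv2, differed by 0.75 and 0.84. Core subunits of the arm that leads to ubiquinone, Ndufs3, Ndufs7 and Ndufs8, differed by 0.50, 0.77 and 0.84.

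The 2 largest differences of complex I were in accessory subunits of the membrane arm, which support assembly and stability. Ndufc2 (ENSMUSG00000030647, GRCm38 chr7:97400003-97407802) was at 6.37 and 8.43 TPM in Control and at 14.5, 18.8 and 18.1 TPM in SIGLEC12. The lowest SIGLEC12 value was well above the highest Control value, and the difference of 1.12 (SE 0.23, limma adjusted p = 0.0974, exact permutation p = 0.1) was 0.61 after rescaling. Ndufb8, whose protein is widely used as a mark of assembled complex I, followed from 13.7 and 17.8 TPM to 28.3, 41.5 and 32.8 TPM, a difference of 1.07 (SE 0.26, limma adjusted p = 0.0974) and of 0.54 after rescaling. At the other end stood Ndufa13, also known as Grim19, at 1.77 and 1.97 TPM against 2.42, 3.04 and 2.69 TPM. Its difference of 0.37 (SE 0.16, limma adjusted p = 0.146) was -0.01 after rescaling. All 36 genes of the complex were higher with no overlap as deposited (54.1% of all genes), and 19 after rescaling (15.6% of all genes).

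Complex II has a catalytic head, Sdha with the flavin and Sdhb with the iron-sulfur clusters, held by the membrane anchors Sdhc and Sdhd. Sdhd (ENSMUSG00000000171, GRCm38 chr9:50596357-50603812) was at 9.22 and 14.1 TPM in Control and at 22.9, 27.9 and 24.5 TPM in SIGLEC12. It had the largest difference of the complex, 1.07 (SE 0.25, limma adjusted p = 0.0974), and 0.55 after rescaling with the groups still apart. Sdha was at 6.82 and 10.5 TPM in Control and at 13.6, 11.4 and 14.3 TPM in SIGLEC12. Control replicate 4 came close to SIGLEC12 replicate 3, and the difference of 0.57 (SE 0.24, limma adjusted p = 0.152) was 0.06 after rescaling with overlapping groups. Sdhb and Sdhc lay between them, at 0.74 and 0.71 as deposited and at 0.25 and 0.20 after rescaling.

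In complex III the largest differences were those of Uqcr10, Uqcrq and the Rieske protein. Uqcr10, a small subunit, was at 17.7 and 30.1 TPM in Control and at 44.2, 54.9 and 40.5 TPM in SIGLEC12, a difference of 0.97 (SE 0.30, limma adjusted p = 0.101). Uqcrq, which binds next to cytochrome b, differed by 0.95 and the Rieske iron-sulfur protein Uqcrfs1 by 0.88. The core proteins that frame the complex on the matrix side had smaller differences than these, and no test compared the groups of subunits. Uqcrc1 was at 9.60 and 9.49 TPM in Control and at 15.1, 13.3 and 15.3 TPM in SIGLEC12, a difference of 0.56 (SE 0.19, limma adjusted p = 0.111), and Uqcrc2 differed by 0.66. After rescaling, Uqcr10 and Uqcrq stood at 0.44 and 0.42 and Uqcrc1 and Uqcrc2 at 0.05 and 0.13. Uqcrb, at 0.59, had the second smallest difference, and 34.8% of the stretches of 31 bases in its transcripts also occur in other genes, mostly processed pseudogenes.

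Complex IV had the largest median difference, 0.89 as deposited and 0.38 after rescaling. With Cox8b left out these medians were 0.87 and 0.37. Cox7c (ENSMUSG00000017778, GRCm38 chr13:86044816-86046904), a small membrane subunit, was at 32.98 and 54.2 TPM in Control and at 75.2, 107 and 85.5 TPM in SIGLEC12. The samples within each group differed widely but the groups did not overlap, with a difference of 1.05 (SE 0.31, limma adjusted p = 0.0989) and of 0.50 after rescaling. Cox4i1, the ubiquitous form of the regulatory subunit 4, differed by 0.97, and Cox5a, which binds it, by 0.89. Cox5b, at 18.5 and 24.6 TPM against 36.3, 34.4 and 28.7 TPM, differed by 0.60 (SE 0.24, limma adjusted p = 0.137) and by 0.07 after rescaling. Cox7b had the smallest difference of the complex, 0.58 (SE 0.29, limma adjusted p = 0.194), with Control replicate 4 at 21.6 TPM just under the lowest SIGLEC12 sample at 22.7 TPM. Ndufa4 differed by 0.78 and by 0.25 after rescaling. With Cox8b left out, the complex IV mean differed by 0.84 as deposited and by 0.31 after rescaling.

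In complex V the catalytic F1 head and the membrane part were compared. The F1 genes were all higher with no overlap as deposited (54.1% of all genes). The epsilon subunit Atp5e differed by 0.95, the gamma subunit Atp5c1, the rotating shaft, by 0.94 and the beta subunit Atp5b by 0.85. The alpha subunit Atp5a1 differed by 0.70 and the delta subunit Atp5d by 0.66. Atp5b was at 77.1 and 100 TPM in Control and at 162, 148 and 167 TPM in SIGLEC12. The difference had an SE of 0.24 (limma adjusted p = 0.0976) and was 0.30 after rescaling. The membrane subunits g and e, whose proteins join ATP synthases into dimers, went apart. Atp5l, subunit g, was at 24.4 and 30.6 TPM in Control and at 46.2, 64.2 and 50.7 TPM in SIGLEC12, a difference of 0.94 (SE 0.25, limma adjusted p = 0.0974). Atp5k, subunit e (ENSMUSG00000050856, GRCm38 chr5:108433244-108434448), was at 6.44 and 6.71 TPM in Control and at 7.27, 8.46 and 7.10 TPM in SIGLEC12. Its difference of 0.18 (SE 0.18, limma adjusted p = 0.463) was the smallest of all 77, and after rescaling all 3 SIGLEC12 samples, at 2.91, 3.12 and 2.77, lay below the Control samples at 3.32 and 3.16, a difference of -0.31 (limma unadjusted p = 0.126). Atp5j2, subunit f, was also near the low end, at 0.41 and at -0.08 after rescaling.

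Several subunits exist as paralogs whose products replace each other in some tissues, and 6 pairs with both genes past the filter were compared by their ratio within each sample. The c ring of the ATP synthase is made from the identical mature products of Atp5g1, Atp5g2 and Atp5g3. Atp5g3 held 52.5% and 63.7% of their summed TPM in Control and 59.8%, 57.2% and 56.2% in SIGLEC12. Atp5g1 held 42.3% and 32.7% against 37.7%, 38.2% and 39.9%, so the make-up of the family overlapped between the groups (exact permutation p = 0.9 for Atp5g3 and 0.8 for Atp5g1). Atp5g2 held from 2.56% to 5.21%, at 2.65 and 2.40 TPM in Control and 2.30, 4.87 and 4.42 TPM in SIGLEC12. It is, with Cox7a1, the subunit gene whose groups overlapped as deposited, and 40.2% of its 31-base stretches occur in other genes.

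Ndufa4 and its paralog Ndufa4l2, a gene induced by hypoxia that opposes Ndufa4, had the largest change of ratio with the pseudocount of 1. Ndufa4l2 was at 2.61 and 3.12 TPM in Control and at 2.58, 4.19 and 1.84 TPM in SIGLEC12, with full overlap and a difference of -0.04 (limma adjusted p = 0.919), the sole negative value among the 81 tested members. The log2 level of Ndufa4 minus that of Ndufa4l2 was 2.04 and 2.03 in Control and 2.66, 2.60 and 3.30 in SIGLEC12. The groups did not overlap, and the ratio differed by 0.82 (exact permutation p = 0.1, adjusted p = 0.6 over the 6 ratios). The ratio of Atp5g1 to Atp5g2 differed by 0.43 (exact permutation p = 0.2, adjusted p = 0.6), and those of Atp5g1 to Atp5g3, Cox7a2 to Cox7a1, Cox7a2 to Cox7a2l and Cox8a to Cox8b by 0.05, 0.18, 0.09 and 0.08, with overlapping groups. The last ratio turned with the scale, to -0.30 after rescaling and to -1.21 with a pseudocount of 0.1 (0.88 for Ndufa4 to Ndufa4l2), since Cox8b is so low that the pseudocount of 1 sets most of its value. Cox7a2l, an assembly factor for supercomplexes of III and IV, itself differed by 0.89 (limma adjusted p = 0.0974).

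Of the forms of complex IV subunits typical of heart and skeletal muscle, Cox8b and Cox6a2 were near the floor, while Cox7a1 had a mean of 4.79 TPM. Cox8b (ENSMUSG00000025488, GRCm38 chr7:140898945-140900446) was at 0.153 and 0.213 TPM in Control and at 1.27, 1.32 and 0.978 TPM in SIGLEC12. All 3 SIGLEC12 values were far above both Control values, with a difference of 0.89 (SE 0.18) and of 0.73 after rescaling. No p is given, since Cox8b met the filter through the SIGLEC12 samples alone. It made 0.376% and 0.378% of the summed Cox8 TPM in Control and 1.37%, 1.21% and 1.15% in SIGLEC12. Cox7a1 was at 1.64 and 4.68 TPM in Control and at 5.53, 7.78 and 4.32 TPM in SIGLEC12, with overlapping groups and a difference of 0.80 (SE 0.37, limma adjusted p = 0.172). Cox6a2 did not reach the filter and was at 0.0290 and 0.355 TPM in Control and at 0.439, 0.942 and 0.391 TPM in SIGLEC12.

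Striated muscle markers were unevenly present in these pieces of colon, and the muscle forms were read beside them. Of 10 markers, 6 reached the filter, and their list summed to 0.839 and 25.7 TPM in Control and to 32.2, 91.2 and 17.6 TPM in SIGLEC12. Acta1, skeletal actin, went from 0.29 and 2.81 to 3.98, 4.72 and 2.94 on the log2 scale. It was the only one of the 6 whose groups did not overlap (54.1% of all genes were higher with no overlap). In Ckm, Myh4, Tnnt3, Mylpf and Atp2a1, Control replicate 4 was above at least 1 SIGLEC12 sample. The cardiac myosins Myh6 and Myh7 stayed at or below 0.332 TPM. Cox7a1 had the same order of samples as the marker sum, from SIGLEC12 replicate 3 at the top to Control replicate 1 at the bottom, and Cox6a2 was likewise highest and lowest in those samples. Cox8b was at 0.213 TPM in Control replicate 4, where the markers summed to more than in SIGLEC12 replicate 4 with Cox8b at 0.978 TPM. None of the 5 adipocyte and brown fat markers reached the filter, and the brown fat gene Ucp1 was listed at 0. Fabp4 was the highest of them, at up to 2.21 TPM. Their sum was 0.717 and 0.219 TPM in Control and 1.42, 3.28 and 0.818 TPM in SIGLEC12, without overlap of the groups. Of single tested genes, 54.1% were likewise higher with no overlap. The part of muscle and fat content in these values was not tested.

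**Figure D5:**
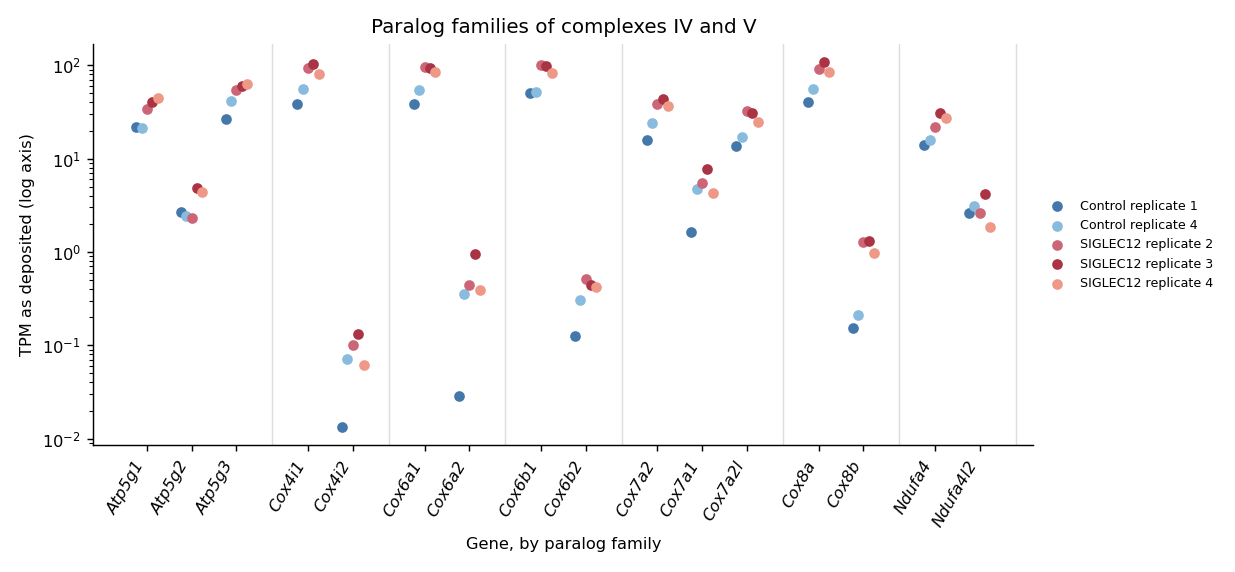
TPM of each member of 7 paralog families in each of the 5 samples, on a log axis, with points from left to right for Control replicates 1 and 4 and SIGLEC12 replicates 2, 3 and 4. The ubiquitous forms lie between 13.8 and 108 TPM, except Atp5g2, while Cox4i2, Cox6a2 and Cox6b2 lie below 1 TPM in all samples and Cox8b crosses 1 TPM in SIGLEC12 alone. Cox7a2l, not counted among the ubiquitous forms, lies between 13.5 and 32.1 TPM.

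The remaining subunit genes that did not reach the filter were tissue forms of complex IV. Cox4i2, the lung form of subunit 4 that responds to low oxygen, had a highest TPM of 0.133 and Cox6b2, the testis form of subunit 6b, reached 0.516 TPM. Cox7b2, another testis form, was at 0.0549 TPM in Control replicate 4 and listed at 0 in the other samples, and Cox8c, likewise of testis, was listed at 0 in all 5. All 5 germ cell markers were at or below 0.0409 TPM. Of the pseudogenes, Ndufa11b and Cox6c2 were listed at 0 and Ndufs6b had a highest TPM of 0.0524.

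The pseudogene Ndufb4c could not be told apart from Ndufb4 by sequence. Ndufb4c (ENSMUSG00000083380, GRCm38 chr15:73809507-73809896) is a copy of 390 bases without introns. It is identical to the Ndufb4 transcript, of 971 bases, at all 390 bases, so 100% of its 31-base stretches occur elsewhere. Of the stretches of Ndufb4, 19.1% occur in other genes. Ndufb4c was listed at 14.6 and 18.8 TPM in Control and at 29.6, 43.0 and 30.7 TPM in SIGLEC12, and Ndufb4 itself at 2.50 and 4.14 TPM against 6.80, 8.21 and 5.51 TPM. The copy thus took between 81.4% and 85.4% of the pair in every sample. Its difference, 0.995 (SE 0.26, limma adjusted p = 0.0974), was near the 0.87 of Ndufb4 (SE 0.25, limma adjusted p = 0.0976). The level given for Ndufb4, a membrane arm subunit of complex I, is therefore uncertain, while the direction of the pair together does not depend on the split.

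Promoters were examined because the members moved together. Nuclear respiratory chain genes are known targets of NRF1, of the ETS factor GABPA (also called NRF2), of YY1 and of the estrogen-related receptors. RefSeq promoter windows of 300 bases, from 250 before to 50 after the start, were found for 66 of the 82 subunit genes on GRCm38.p6. The letters GCGCANGCG of NRF1, on either strand, occurred in 20 of the 66 (30.3%), against 16.05% of 7277 tested protein-coding genes and 7.03% of all 27025 genes with a window. They were found in 7 of 13 complex V genes, 8 of 32 of complex I, 2 of 3 of complex II, 2 of 5 of complex III and 1 of 13 of complex IV. The receptor letters AAGGTCA were in 12.1% of the subunit genes (3.64% of the tested genes), AAGATGGCG of YY1 in 10.6% (4.03%) and the ETS letters CCGGAAG in 24.2% (21.8%). No matches of different motifs shared bases in these genes. Shown here are stretches of 61 bases, 5′ to 3′ on the minus strand, with the NRF1 letters or their reverse complement in capitals, from the only complex IV gene that held them (Cox6a1, chr5:115349041-115349101), from the complex II genes with the largest and the smallest difference (Sdhd, chr9:50603894-50603954, and Sdha, chr13:74350261-74350321) and from the gene with the smallest difference of all (Atp5k, chr5:108434415-108434475).
Cox6a1: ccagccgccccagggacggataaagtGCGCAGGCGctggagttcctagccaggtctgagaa
Sdhd: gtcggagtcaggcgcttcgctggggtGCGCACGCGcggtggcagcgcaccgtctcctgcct
Sdha: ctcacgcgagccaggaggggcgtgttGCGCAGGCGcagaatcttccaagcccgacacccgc
Atp5k: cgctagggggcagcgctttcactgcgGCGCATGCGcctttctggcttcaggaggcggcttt

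The motif was found at both ends of the range of differences. The matches shown began 117, 79, 55 and 50 bases before the start in Cox6a1, Sdhd, Sdha and Atp5k, genes that differed by 0.96, 1.07, 0.57 and 0.18. Cox6a1 held further matches at 162 and 161 bases, Sdha another at 98 and Atp5k an overlapping match at 49. Among tested subunit genes with a window, the rescaled median difference was 0.25 for the 20 with the NRF1 letters and 0.28 for the 44 without. For the ETS letters it was 0.27 (16 genes) against 0.26 (48), and for YY1 0.19 (7) against 0.26 (57). For the receptor letters it was 0.41 (8 genes) against 0.25 (56). The genes that encode the factors were at low levels. Tfam, which maintains mitochondrial DNA, had the largest difference of the 11 regulators tested, 0.69 (limma adjusted p = 0.0974), and Esrra, a receptor gene, 0.56 (limma adjusted p = 0.149). Pprc1 and Ppargc1b, both coactivators, differed by -0.12 and -0.02. The regulators had a median of 0.36, and of -0.01 after rescaling. Higher with no overlap as deposited were 7 of 11 (54.1% of all genes).

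As deposited, other genes of the same machinery had smaller medians than the subunits on the log2(TPM + 1) scale. Many assembly genes were at low levels, where this scale understates a difference, and the part of level in this order was not tested. The complex II assembly genes summed to 2.05 and 2.69 TPM in Control and to 4.43, 5.60 and 4.74 TPM in SIGLEC12. The complex II subunits summed to 30.4 and 43.6 TPM against 66.7, 68.9 and 65.1 TPM. The 16 tested assembly genes of complex IV had a median of 0.53, and 14 were higher with no overlap (54.1% of all genes). Cox16 at 0.93 and Coa3 at 0.85 were at the top and Pet100 at 0.24 and Taco1 at 0.30 at the bottom. The 10 assembly genes of complex I had a median of 0.37, from Ndufaf3 at 0.74 and Ndufaf8 at 0.68 down to Foxred1 at 0.17 and Acad9 at -0.02. For complex II, III and V the medians were 0.58 (3 genes), 0.31 (5 genes) and 0.54 (4 genes). The 13 genes of the tricarboxylic acid cycle had a median of 0.55, led by Idh3g at 0.88 and Suclg1 at 0.80, with Ogdh at 0.24 and citrate synthase Cs at 0.34 lowest. The 11 electron carriers and membrane partners had 0.59, with the mitochondrial porin Vdac2 at 0.84 and Etfb at 0.82 highest and Etfa at 0.34 and Slc25a4 at 0.38 lowest. After rescaling the medians of all these lists lay between -0.08 and 0.34, the highest being that of complex II assembly, above the 0.26 of the subunit genes, and 0 genes of any of them passed an adjusted p of 0.05 (limma).

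The 13 protein genes of mitochondrial DNA, which supply the other part of complexes I, III, IV and V, had a median difference of 0.475 as deposited. After rescaling it was -0.08, and 4 of 13 were higher in SIGLEC12 (51.1% of all genes). Their summed level was 4674 and 6720 TPM in Control and 6726, 6871 and 10390 TPM in SIGLEC12. As deposited 1 of 13 was higher with no overlap, mt-Co2, against 75 of the 77 nuclear genes and 54.1% of all genes.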

How the data were processed

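The authors deposited a single table of log2(TPM + 1) for 52143 mouse genes, 1 column per sample. The submitters' processing notes name kallisto 0.45.0 and GRCm38, while the study's methods name a human reference and another version. The methods mention technical replicate libraries without saying if their values were averaged. P-values measure the spread between these columns. TPM keeps no depth.

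Genes with a TPM of at least 1 in at least 2 samples (10338) entered a limma 3.58.1 fit under R 4.3.3 (lmFit, eBayes with trend, two-sided, Benjamini-Hochberg over all genes), after a check on simulated data. Paralog ratios were tested by an exact permutation test over 10 splits. Rescaling gave each sample an equal protein-coding TPM total. The trend with annotated length was removed by lowess (span 0.3), so values with length removed share the limit of these lengths. Biotypes, coordinates and transcript lengths came from GENCODE M21 on GRCm38, which held 98.3% of the gene identifiers. Of 93 rows that met the naming rule, 4 repeated a symbol, and the row with the higher mean was kept. Named genes were the core catalytic subunits, the 3 largest and 2 smallest differences of each complex, the 3 highest levels, all paralog families, and all members under the filter. For other lists they were the 2 largest and 2 smallest. A member gene is counted but not reported by name here. Members and lists were chosen with earlier results of these data known, and keeping the pseudogenes apart was decided after the table was read. Shared stretches of 31 bases were counted against all GENCODE M21 transcripts.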

Additional observations from a re-analysis of the deposited data

How the results depend on the processing

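No paired analysis was possible because just 1 replicate number, 4, occurs in both groups. Each complex kept a higher mean in SIGLEC12 under every alternative run, but its size depended on the scale. For complexes I to V it was 0.24, 0.27, 0.24, 0.34 and 0.20 when rescaled to equal protein-coding totals, 0.12, 0.17, 0.12, 0.22 and 0.10 with the length trend also removed, and 0.21, 0.20, 0.18, 0.30 and 0.15 under quantile normalization. These settings set the common shift to near 0. Leaving out each replicate in turn gave ranges of 0.58 to 0.89, 0.54 to 1.01, 0.59 to 0.93, 0.61 to 1.07 and 0.58 to 0.85 for complexes I to V. With rescaling, chosen after seeing the data, the ranges were 0.17 to 0.30, 0.14 to 0.39, 0.16 to 0.30, 0.22 to 0.47 and 0.11 to 0.24. The gap of complex I to II differed by 0.077 and that of complex V by 0.12 when medians replaced means, and with replicates left out they ranged from -0.12 to 0.054 and from -0.17 to 0.04. With no filter the gap of complex IV to II differed by -0.12, since 5 tissue forms near 0 TPM then enter its mean.

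Subunit genes at an adjusted p under 0.05 numbered 0 under every alternative run except without Control replicate 4 (0 to 28 with replicates left out). At an unadjusted p under 0.05 there were 66, then 5, 2 and 3 after rescaling, length removal and quantile normalization (5.9% of all genes under the last), 35 to 72 with replicates left out as deposited (13.9% to 42.7% of all genes), and 1 to 6 with rescaling as well (1.32% to 11.5%). Of 47 named genes, 4 turned lower after rescaling: Atp5j2 (-0.084), Atp5k (-0.31), Ndufa13 (-0.0092) and Ndufs1 (-0.15). With length removed, these were at -0.22, -0.29, -0.12 and -0.29, and Atp5d (-0.0009), Atp5g2 (-0.13), Cox5b (-0.0645), Cox7b (-0.060), Ndufs3 (-0.061), Uqcrb (-0.084) and Uqcrc1 (-0.087) turned too. Under quantile normalization Atp5j2 (-0.10), Atp5k (-0.30), Cox5b (-0.026), Cox7b (-0.050), Ndufs1 (-0.15) and Uqcrc1 (-0.0145) were lower. Ndufa4l2 was higher without Control replicate 4 (0.06) or SIGLEC12 replicate 4 (0.16). The ratio of Cox8a to Cox8b was -0.30, -0.39, -0.36 and -1.21 after rescaling, length removal, quantile normalization and with a pseudocount of 0.1, and -0.11 to 0.27 with replicates left out. Those of Atp5g1 to Atp5g3, Cox7a2 to Cox7a1 and Cox7a2 to Cox7a2l ranged from -0.27 to 0.36, -0.08 to 0.45 and -0.0295 to 0.22 with replicates left out, and under quantile normalization the first of these was -0.016 and the next -0.0039. The unknown depth leaves the counting error of Cox8b and the other genes near 1 TPM unmeasured. The cause of the remaining changes was not tested.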
